A study of Mus musculus with 12 samples.

Results

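Levels of 8 protein-coding genes were compared across 12 RNA-seq libraries of F1 mouse testis: Zfp286, Itgae, Antxrl, Capns2, Slc6a15, Mtr, Alx1 and Tgm6. These 8 genes were chosen by their measured values in the same libraries, as genes whose level shifted across a whole group in a comparison involving the overexpression group or 5NC. They are 8 of 20788 genes in the table, and all 8 are among the 16388 genes that passed the filter on low counts. Levels and fold changes in those comparisons are therefore given as a description, and the number of the 8 that passed is printed only beside the share of all genes and is not read as a test. The comparison of the knockdown group with 3NC did not enter the choice and was tested.

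The libraries form 4 groups of 3. In the 3NC lineage the virus was the LV3 control lentivirus, and in the knockdown group (KD in the sample titles) a mix of LV3 lentiviruses with short hairpins against several positions of lncRNA5251. In the 5NC lineage it was the LV5 control lentivirus, and in the overexpression group (OV in the titles) an LV5 lentivirus carrying lncRNA5251. Per the methods of the study, the virus was injected into the testes of F0 males aged 4 weeks, and the profiled testes came from their male offspring at 8 weeks. The design text of the series says instead that the F1 testes were transfected. The strain is ICR in the methods and "IRC mouse" in the labels. Whether each library is a separate animal is not stated in the labels, so p-values reflect the variation among libraries alone, and this may be technical. As the backbone differs, the effect of vector and of lineage cannot be told apart between 5NC and 3NC.

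Each library held 12719699 to 15771655 estimated reads. The summed level of 7 germ cell markers was 9175 to 12336 CPM (reads scaled to a common library size of 1e+06 by TMM), and each of the 7 was detected in every group. Leucocyte markers stood apart in 3NC replicate 2 and knockdown replicate 1, at 350.4 and 375.5 CPM over 6 genes against 52.0 to 77.3 CPM in the other 10 libraries. All 6 of those markers were detected in each group. The 4 epididymis markers summed to 12.4 to 276.8 CPM in 5NC and 0.921 to 0.999 CPM in the overexpression group. Nearly all of this was Crisp1 and Spink8: Lcn5 was at 0 in the 9 libraries outside 3NC, and Gpx5 was at 0.135 CPM or less in every library. In bulk tissue, fewer cells of a type and less RNA per cell cannot be told apart.

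The 8 genes have different roles. Zfp286 encodes a C2H2 zinc finger protein with a KRAB domain, a class of factor that usually represses transcription, and Alx1 an aristaless-type homeodomain factor of craniofacial development. Itgae encodes integrin alpha E (CD103), which pairs with the beta 7 chain encoded by Itgb7 and binds E-cadherin on epithelial cells. Mtr encodes methionine synthase, which transfers a methyl group from methyltetrahydrofolate to homocysteine with cobalamin as its cofactor, and so links the folate cycle to the supply of S-adenosylmethionine. Capns2 encodes a small regulatory subunit of calpains, the calcium-dependent cysteine proteases, and Tgm6 a transglutaminase, an enzyme that cross-links proteins through glutamine and lysine. Slc6a15 encodes a sodium-coupled transporter of neutral amino acids, and Antxrl a protein related to the anthrax toxin receptors.

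Per length, in the RPKM that the authors deposited, the 8 genes differed widely in level. Antxrl was highest with a mean of 56.9 RPKM over the 12 libraries, at percentile 87.5 of the tested genes, followed by Alx1 with 18.2 and Itgae with 16.4 RPKM. Mtr with 5.96, Zfp286 with 3.39 and Capns2 with 2.16 RPKM were intermediate. Tgm6 with 0.742 and Slc6a15 with 0.258 RPKM, at percentile 3.31, were the low ones.

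**Figure D1:**
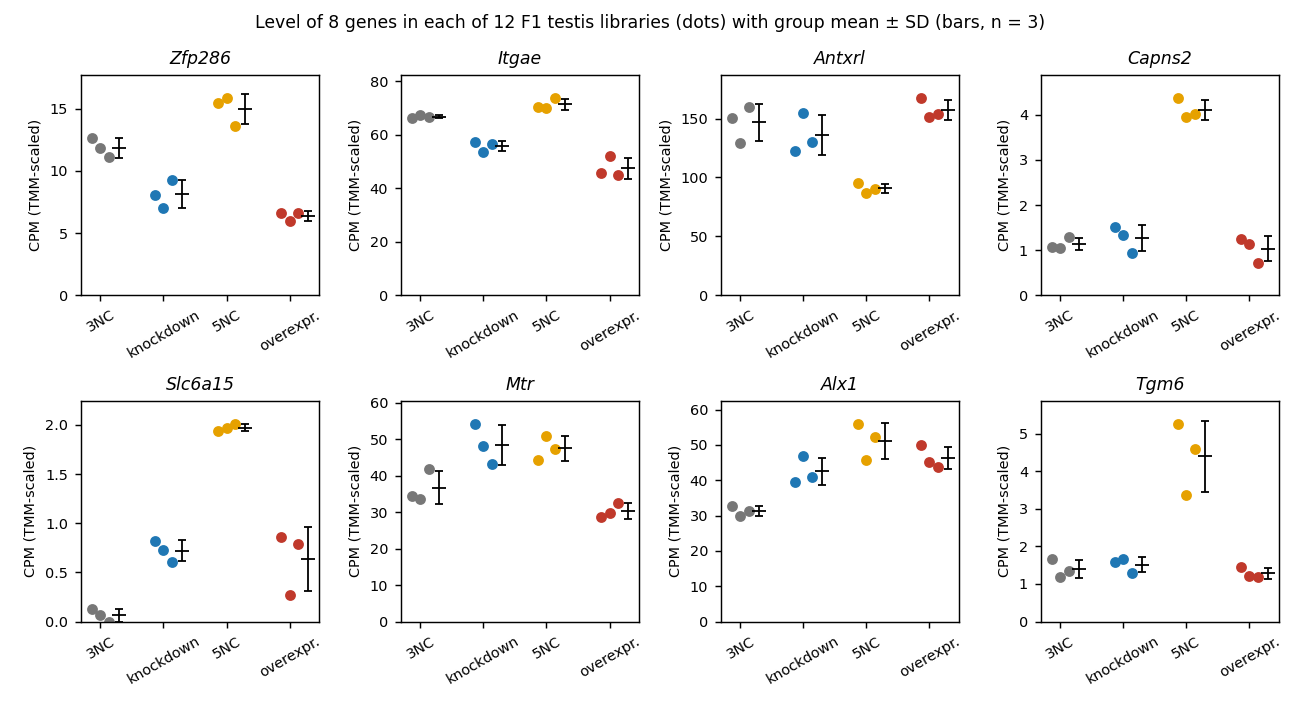
Level in CPM (vertical axis, from 0) of each of the 8 genes in 4 groups of 3 testis libraries, with dots for libraries and bars for the group mean ± SD. Capns2, Tgm6 and Slc6a15 were highest in the 3 libraries of 5NC, Antxrl was lowest there, and Zfp286, Itgae and Mtr were lowest in the 3 libraries of the overexpression group.

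Capns2 and Tgm6 were higher in 5NC than in every other library. Capns2 lies at chr8:92901395-92902409 on the plus strand of GRCm38.p6, inside Lpcat2, and Tgm6 at chr2:130112416-130154233 on the plus strand. Because these 2 genes had the most alike profiles of the 28 pairs of the 8 genes, their promoters are shown. RefSeq windows of 250 bases before to 50 after a start on GRCm38.p6 were present for 4 of the 8 genes (5 windows, 2 of them for Tgm6), and were searched on both strands for the TATA box (TATAAA), the CCAAT box (CCAAT), the GC box (GGGCGG), an E-box (CACGTG) and the core of the cAMP response element (TGACG). Capitals mark the matches.

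Capns2, chr8:92901145-92901444, plus strand: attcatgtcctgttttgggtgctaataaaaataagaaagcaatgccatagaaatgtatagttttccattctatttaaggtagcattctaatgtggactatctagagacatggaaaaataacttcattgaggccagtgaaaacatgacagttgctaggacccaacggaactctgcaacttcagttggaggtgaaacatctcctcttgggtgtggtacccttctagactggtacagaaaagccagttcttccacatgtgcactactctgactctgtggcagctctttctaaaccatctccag
Tgm6, chr2:130112166-130112465, plus strand: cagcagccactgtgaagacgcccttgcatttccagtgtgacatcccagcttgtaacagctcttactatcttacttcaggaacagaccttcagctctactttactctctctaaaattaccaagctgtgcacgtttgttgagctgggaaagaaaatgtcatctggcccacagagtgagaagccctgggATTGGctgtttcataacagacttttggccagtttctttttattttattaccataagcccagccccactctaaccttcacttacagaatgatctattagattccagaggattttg

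The Capns2 window held none of the 5 motifs, with a GC content of 41.3% and 1 CpG. The Tgm6 window held 1 CCAAT match, a GC content of 43.7% and 2 CpG; the second Tgm6 window held 1 TGACG match. Over all 32851 promoters CCAAT was found in 37.4%, TGACG in 20.8%, the median GC content was 52.7% and the median number of CpG 7, so both motif matches are common.

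Capns2 was at 4.37, 3.94 and 4.01 CPM in 5NC replicates 1 to 3 (182 reads in all). It was at 1.25, 1.13 and 0.714 CPM in the overexpression group, at 1.06, 1.06 and 1.28 CPM in 3NC and at 1.52, 1.33 and 0.945 CPM in the knockdown group. The other 3 groups overlapped and 5NC did not overlap with any. The fitted log2 fold change was -1.98 (SE 0.26) for the overexpression group against 5NC and 1.85 (SE 0.26) for 5NC against 3NC.

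Tgm6 was at 5.24, 3.38 and 4.58 CPM in 5NC (196 reads in all). It was at 1.45, 1.20 and 1.19 CPM in the overexpression group, at 1.65, 1.18 and 1.35 CPM in 3NC and at 1.58, 1.66 and 1.28 CPM in the knockdown group. Again 5NC stood above the other 9 libraries, which overlapped among groups. The log2 fold changes were -1.78 (SE 0.24) for the overexpression group against 5NC and 1.65 (SE 0.24) for 5NC against 3NC. The mean absolute difference between the centred log2 CPM of Capns2 and Tgm6 over 12 libraries was 0.18, and each was the most alike gene to the other among all genes tested. On log2(RPKM + 0.1) the pairs of most alike genes named here and below kept both genes for Antxrl, Slc6a15, Alx1 and Tgm6, and 1 of the 2 for Zfp286, Itgae, Capns2 and Mtr. Next came Ramp1 for Capns2 (0.35; a receptor activity-modifying protein, 3.13 CPM in 5NC and 1.31 in the overexpression group) and Prss45 for Tgm6 (0.30; a serine protease, 74.9 CPM in 5NC and 37.8 in the overexpression group).

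Slc6a15, at chr10:103367808-103419379 on the plus strand, had the largest ratio between groups of the 8 genes and the lowest level per length. Its estimated reads were 31, 28 and 28 in 5NC, 13, 4 and 10 in the overexpression group, 13, 11 and 9 in the knockdown group and 2, 1 and 0 in 3NC. These are 1.93, 1.97 and 2.0 CPM in 5NC, 0.855, 0.266 and 0.793 CPM in the overexpression group, 0.822, 0.731 and 0.608 CPM in the knockdown group and 0.132, 0.0621 and 0 CPM in 3NC. The order was 5NC, then the knockdown group and the overexpression group, which overlapped, then 3NC below all other libraries. With 3 reads over the 3NC group, the summed ratios carry wide counting intervals (exact binomial, 95%, counting error only). The ratio was 30.8 (10.2 to 152.4) for 5NC against 3NC and 0.310 (0.193 to 0.482) for the overexpression group against 5NC. The fitted log2 fold change for 5NC against 3NC was 4.75, and became 5.61 without 3NC replicate 1, which held 2 of the 3 reads. With limma it was 3.46 on log2 CPM and 2.53 on log2(RPKM + 0.1). The 4 epididymis markers, also higher in 5NC than in the overexpression group, summed to 30.1 to 71.9 CPM in 3NC and to 0.798 to 16.1 CPM in the knockdown group, and their part in the values of Capns2, Tgm6 and Slc6a15 was not tested. The most alike genes to Slc6a15, Arhgap40 (0.61) and Gm3435 (0.63), lay at larger distances than those of the other 7 genes (0.09 to 0.35).

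Antxrl was the one gene of the 8 that was low in 5NC. It lies at chr14:34052668-34076323 on the plus strand. It was at 95, 86.8 and 90.4 CPM in 5NC, at 167.4, 151.2 and 154.0 CPM in the overexpression group, at 150.6, 129.4 and 160.3 CPM in 3NC and at 122.6, 155.0 and 130.2 CPM in the knockdown group. The 5NC libraries lay below all others, and the other 3 groups overlapped. Of the 7 germ cell markers Acrv1, an acrosomal protein gene, was also lowest in 5NC, at 134.3 to 138.9 CPM against 143.0 to 226.3 CPM elsewhere. It was picked after its values were seen, and the other germ cell markers overlapped between 5NC and the other groups. The sum of the 7 was 10411 to 11338 CPM in 5NC, within the range of the other groups. Of the 5 red blood cell markers Hbb-bs was at 0 to 0.0716 CPM in 5NC against 3.22 to 14.1 CPM elsewhere. Hbb-bt was at 0 to 0.0704 CPM against 0.569 to 4.29 CPM, and the others of the 5 overlapped between 5NC and the other groups. The sum of the 5 was 48.7 to 56.5 CPM against 40.3 to 101.8 CPM. The part of these markers in the Antxrl value was not tested. The log2 fold change was 0.80 (SE 0.11) for the overexpression group against 5NC and -0.69 (SE 0.11) for 5NC against 3NC. Specc1 (0.09; a coiled-coil cytoskeletal protein, 23.2 CPM in 5NC and 37.4 in the overexpression group) and Btg1-ps2 (0.10) were the most alike. The Antxrl window held none of the 5 motifs.

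Antxrl shares its locus with A630023A22Rik, a gene on the opposite strand that spans it. A630023A22Rik was at 1.06, 1.13 and 1.0 CPM in 5NC, at 5.52, 3.53 and 4.44 CPM in the overexpression group and at 4.24, 3.42 and 5.34 CPM in 3NC. In the knockdown group it was at 2.47, 3.66 and 1.96 CPM. The estimated reads of both genes held fractions in all 12 libraries and summed to whole numbers (within 0.01 reads) in all 12, so the deposited counts divide reads between the pair. The sources used here do not state that counting used strand, and reads of the pair cannot be told apart where they overlap, which makes both levels uncertain to that extent. As A630023A22Rik takes part in the reads by which Antxrl was chosen, its values are not independent of the choice. Its calls among the neighbours below are not read as a test. Its log2 fold change was 2.07 for the overexpression group against 5NC and -2.02 for 5NC against 3NC.

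Zfp286, Itgae and Mtr were lowest in the overexpression group. Zfp286 lies at chr11:62751951-62789506 on the minus strand, and was at 6.58, 5.93 and 6.58 CPM in the overexpression group and at 15.5, 15.83 and 13.6 CPM in 5NC. It was at 12.6, 11.8 and 11.1 CPM in 3NC and at 8.09, 7.05 and 9.25 CPM in the knockdown group. None of the 4 groups overlapped, in the order 5NC, 3NC, the knockdown group and the overexpression group; between the knockdown group and the overexpression group the gap was narrow, 7.05 against 6.58 CPM. The log2 fold change of the overexpression group against 5NC was -1.23 (SE 0.14), and of 5NC against 3NC 0.34 (SE 0.13). Edar (0.14; a receptor of the TNF receptor family, 1.19 CPM in the overexpression group and 2.68 in 5NC) and Mpzl2 (0.18; a cell adhesion protein) had the most alike profiles.

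Itgae, at chr11:73090505-73147449 on the plus strand, showed the same order of groups with smaller steps. It was at 45.7, 52.1 and 44.8 CPM in the overexpression group, at 57.4, 53.7 and 56.7 CPM in the knockdown group, at 66.4, 67.4 and 66.7 CPM in 3NC and at 70.4, 70.1 and 73.7 CPM in 5NC. The groups did not overlap, though the overexpression group and the knockdown group were separated only by 52.1 against 53.7 CPM. The log2 fold change was -0.59 (SE 0.08) for the overexpression group against 5NC and 0.10 (SE 0.08) for 5NC against 3NC. Gtf2h5 (0.10; a subunit of the general transcription factor TFIIH) and Rab11fip4 (0.10; an effector of Rab11) were the most alike.

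Itgae marks some T cells, so its values were set beside leucocyte markers. In 3NC replicate 2 and knockdown replicate 1, where the leucocyte marker Ptprc reached 94.8 and 71.7 CPM against 2.12 to 6.91 CPM elsewhere, Itgae was at 67.4 and 57.4 CPM, close to the other libraries of those groups. Itgb7, its partner chain, was higher there, at 13.2 and 11.9 CPM in these libraries and at 0.338 to 1.28 CPM in the other 10. Haspin, the histone H3 kinase gene of male germ cells that lies within Itgae on the opposite strand, was at 765.5 to 888.3 CPM and its log2 fold change was -0.13 for the overexpression group against 5NC (edgeR adjusted p = 0.575). With the strand of counting not stated, a share of Itgae reads from Haspin cannot be told apart.

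Mtr, at chr13:12181331-12258199 on the minus strand, was at 28.5, 29.6 and 32.6 CPM in the overexpression group and at 44.2, 50.9 and 47.2 CPM in 5NC. It was at 34.5, 33.6 and 41.8 CPM in 3NC and at 54.0, 48.0 and 43.1 CPM in the knockdown group. The overexpression group lay below all 9 other libraries, by 32.6 against 33.6 CPM at the nearest, and the knockdown group and 5NC overlapped. The log2 fold change was -0.65 (SE 0.12) for the overexpression group against 5NC and 0.37 (SE 0.12) for 5NC against 3NC. Dpys (0.12; dihydropyrimidinase) and Scn10a (0.13; a sodium channel) were the most alike.

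The Mtr promoter is shown as the window richest in CpG of the 5, with 24 CpG and a GC content of 62.0%. It held 2 matches to the CCAAT box, 1 to the GC box and 1 to the cAMP response element core. The GC box letters were found in 35.7% of all promoters.

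Mtr, chr13:12258064-12258363, minus strand: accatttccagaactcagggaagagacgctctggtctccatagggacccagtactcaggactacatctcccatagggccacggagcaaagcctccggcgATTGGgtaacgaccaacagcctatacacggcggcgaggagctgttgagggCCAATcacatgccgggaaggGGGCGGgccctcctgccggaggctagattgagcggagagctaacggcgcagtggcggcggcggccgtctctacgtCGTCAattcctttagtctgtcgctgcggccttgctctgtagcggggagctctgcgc

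Alx1, at chr10:103007847-103029549 on the minus strand, was marked out by low 3NC libraries. It was at 32.7, 30.02 and 31.3 CPM in 3NC, at 39.6, 46.9 and 41.0 CPM in the knockdown group, at 55.8, 45.6 and 52.1 CPM in 5NC and at 49.9, 45.1 and 43.9 CPM in the overexpression group. 3NC lay below the other 9 libraries, and the other 3 groups overlapped. The log2 fold change was 0.71 (SE 0.10) for 5NC against 3NC and -0.14 (SE 0.10) for the overexpression group against 5NC, the smallest of the 8 genes in the latter. Ncaph (0.11; a condensin subunit) and Wasf3 (0.12; an actin regulator) were the most alike. Alx1 and Slc6a15 lie 338 kb apart on chromosome 10 with 2 tested genes between them. Of these, Lrriq1, a leucine-rich repeat gene, was at 69.4 CPM in 3NC and 68.3 CPM in 5NC, and Gm34298 at 56.7 and 71.1 CPM.

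Over the 8 genes, 6 passed an adjusted p of 0.05 in edgeR for the overexpression group against 5NC (Zfp286, Itgae, Antxrl, Capns2, Mtr and Tgm6) where 0.311% of all genes tested did. For 5NC against 3NC 5 did (Antxrl, Capns2, Slc6a15, Alx1 and Tgm6) against 0.128% of all genes. In 5NC, 6 of the 8 genes lay outside the range of the other 9 libraries, where 5.91% of all genes did, and in the overexpression group 3 of 8, where 0.763% did. The choice of genes fixed these counts, and both comparisons share the 5NC libraries, so nothing is read from them. Without 5NC replicate 3 the first count became 1, without 5NC replicate 2 or overexpression replicate 2 it became 2, and without overexpression replicate 1 it became 3. The second became 0 with only the 6 libraries compared and 0 without any 1 of the 5NC libraries, 1 without 3NC replicate 1, 2 without 3NC replicate 2, 3NC replicate 3, overexpression replicate 2 or overexpression replicate 3, and 3 without knockdown replicate 3.

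**Figure D2:**
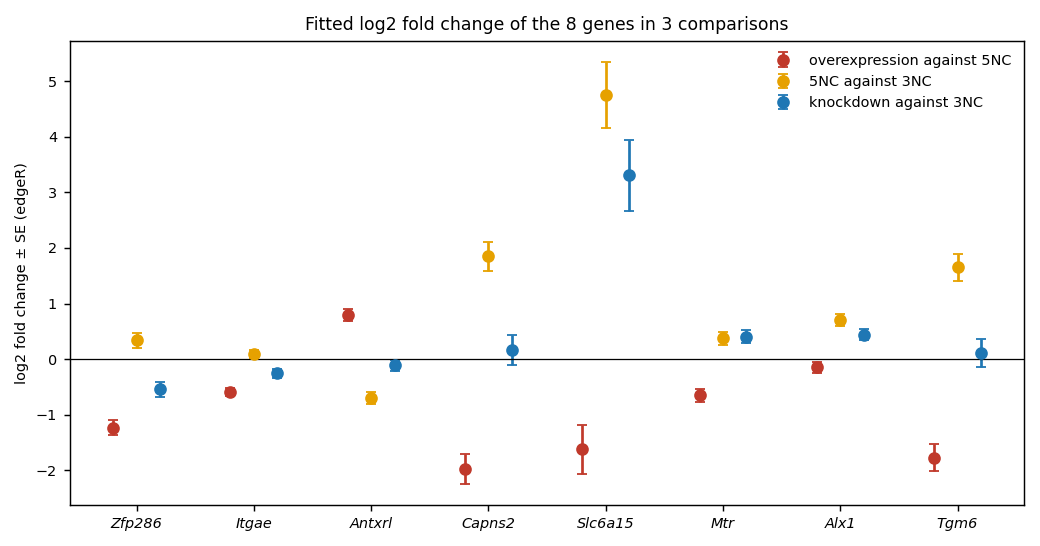
Fitted log2 fold change ± SE (vertical axis) of the 8 genes in 3 comparisons, which set the knockdown group and 5NC each against 3NC and the overexpression group against 5NC. Capns2, Tgm6 and Slc6a15 had the lowest values for the overexpression group against 5NC (-1.98, -1.78 and -1.62), and the values of Slc6a15 against 3NC rest on 3 reads.

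The comparison of the knockdown group with 3NC asked whether the knockdown lineage differed from its own control in these genes. At an adjusted p of 0.05, edgeR called 0 of 16388 genes (0%), and so 0 of the 8; 924 genes had an unadjusted p under 0.05 (5.64% of all genes), and 5 of the 8 did. DESeq2 called 16 genes, 0 of the 8, and edgeR called 12 without 3NC replicate 3, 2 without knockdown replicate 3 and 1 without overexpression replicate 1 or 2. Over all settings the adjusted p of the 8 genes ranged from 0.141 to 0.998. The 3NC libraries were also the reference for 5NC in choosing some of the 8, Slc6a15 and Alx1 above all, so low 3NC values there are not independent of the choice.

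For Zfp286 the fitted value of the knockdown group against 3NC was -0.54 on the log2 scale (SE 0.13; unadjusted p = 0.00188 and adjusted p = 0.764 in edgeR). For Itgae it was -0.26 (SE 0.08; unadjusted p = 0.00621, adjusted p = 0.764). For Mtr it was 0.40 (SE 0.12; unadjusted p = 0.00488, adjusted p = 0.764), and without 3NC replicate 2 and knockdown replicate 1 it was 0.26 with an unadjusted p of 0.0776 in edgeR. For Alx1 it was 0.44 (SE 0.10; unadjusted p = 0.00116, adjusted p = 0.764). Slc6a15 gave a ratio of summed reads of 11.0 (3.45 to 56.1, exact binomial 95%), with an unadjusted p of 0.000275 and an adjusted p of 0.701 in edgeR. Its fitted log2 fold change of 3.31 became 4.17 without 3NC replicate 1 and 2.81 without 3NC replicate 3. With limma it was 2.15 on log2 CPM and 1.39 on log2(RPKM + 0.1). Both scales add a constant before the logarithm, which shrinks fold changes of so few reads. Which of these values is nearest to the change was not tested. In these 5 genes the 3 libraries of the knockdown group did not overlap with the 3 of 3NC, which 11.3% of all genes tested also showed.

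Antxrl, Capns2 and Tgm6 overlapped between the knockdown group and 3NC. Their log2 fold changes were -0.11 (SE 0.10), 0.16 (SE 0.27) and 0.11 (SE 0.25), with edgeR adjusted p of 0.788, 0.886 and 0.912. Without the libraries with high leucocyte markers, Capns2 and Tgm6 changed sign, at -0.04 and -0.03.

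Genes that lie beside the 8 were compared next, as the 5 nearest tested genes on each side. Of the 72 distinct neighbours, edgeR called 0 for the knockdown group against 3NC and 1 each for the overexpression group against 5NC and 5NC against 3NC, that is A630023A22Rik in both, whose reads are bound to those of Antxrl and which is no independent call. Of the other 71 neighbours, 0 were called in any of the 3 comparisons. At an unadjusted p under 0.05 the counts over all 72 were 8, 10 and 8, each with A630023A22Rik among them, against 5.64%, 11.9% and 10.8% of all genes. Zfp287, the zinc finger gene beside Zfp286, had a log2 fold change of -0.31 for the overexpression group against 5NC (edgeR adjusted p = 0.376), and Trim16 on its other side 0.98 (adjusted p = 0.433). Lpcat2, a lysophospholipid acyltransferase gene within which Capns2 lies on the same strand, was at 0.886 CPM in 5NC and 0.869 CPM in the overexpression group. Gm34298, which overlaps the Alx1 locus, was at 71.1 CPM in 5NC and 61.9 CPM in the overexpression group. Tgm3 beside Tgm6, a transglutaminase of epithelia, was at 1.71 and 1.79 CPM in 5NC and the overexpression group, while Actn2, the muscle actinin gene beside Mtr, was at 10.1 and 22.7 CPM (edgeR adjusted p = 0.214). For Actn2 edgeR gave an adjusted p of 0.0329 with only the 6 libraries compared and 0.0341 without 3NC replicate 2 and knockdown replicate 1. P2rx5, a purinergic receptor gene and the second tested gene after the start of Itgae, was at 1.31, 1.48 and 1.503 CPM in 5NC and at 15.4, 12.72 and 20.3 CPM in the overexpression group, with 1.32, 0.746 and 10.7 CPM in 3NC and 1.45, 7.58 and 6.35 CPM in the knockdown group (log2 fold change 3.49, edgeR adjusted p = 0.144). Ces5a, a carboxylesterase gene near Capns2, was at 14.9 ± 12.5 CPM (SD, n = 3) in 5NC, 1.25 ± 0.305 in the overexpression group, 6.34 ± 1.72 in 3NC and 2.36 ± 1.39 in the knockdown group. For overexpression against 5NC this was -3.56 on the log2 scale (edgeR adjusted p = 0.0705). The epididymis markers had medians of 115.6, 0.952, 38.6 and 1.35 CPM in the same 4 groups, and their part in the Ces5a value was not tested. Both were named after their values were seen; DESeq2 called both (adjusted p = 0.00123 and 1.02e-05), as did edgeR without 3NC replicate 2 and knockdown replicate 1, while edgeR also called P2rx5 with only the 6 libraries compared or without 3NC replicate 3, and Ces5a without 5NC replicate 1.

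**Figure D3:**
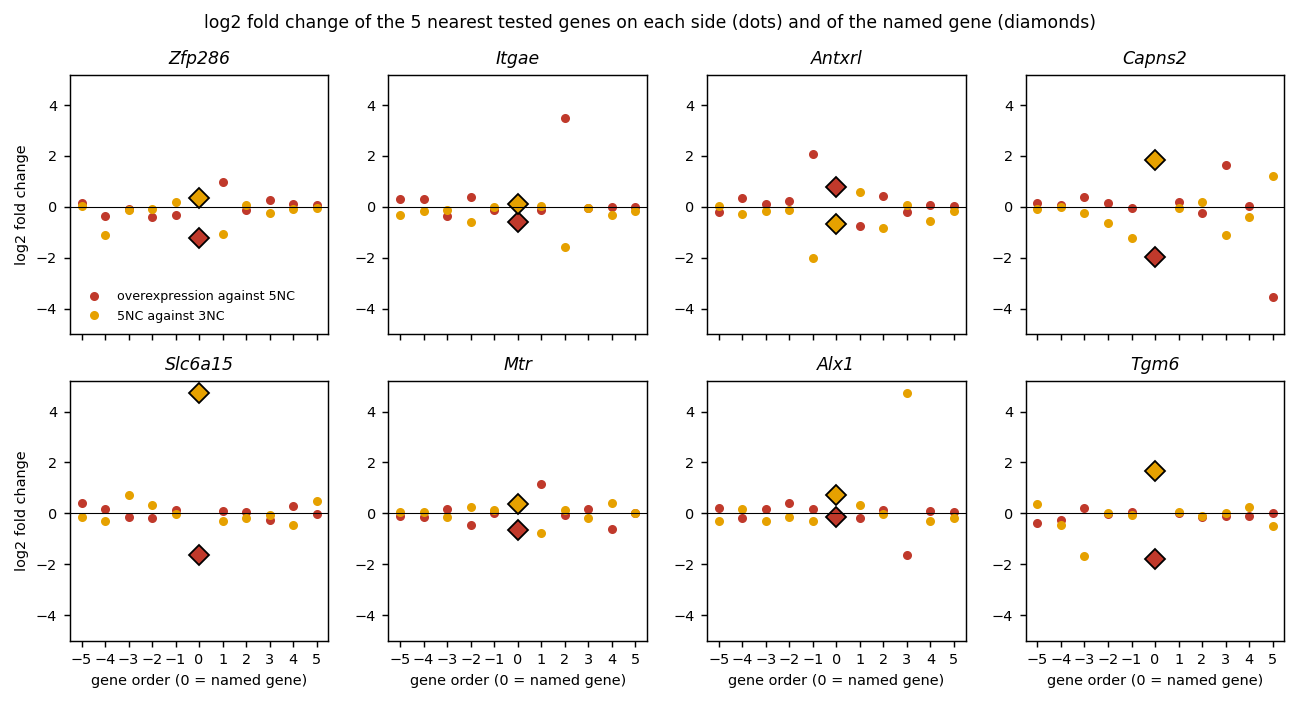
log2 fold change (vertical axis) of the 5 nearest tested genes on each side (dots, in gene order) of each of the 8 genes (diamonds), for the overexpression group against 5NC and 5NC against 3NC. The dots of A630023A22Rik beside Antxrl are at 2.07 and -2.02; Slc6a15 is itself among the neighbours of Alx1.

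The pathways and families of the 8 genes were examined as fixed lists of 101 genes, of which 79 were tested. Of the 79, edgeR called 0 in each of the 3 comparisons; at an unadjusted p under 0.05 the counts were 9 for the knockdown group against 3NC, 11 for the overexpression group against 5NC and 10 for 5NC against 3NC, where 5.64%, 11.9% and 10.8% of all genes had one. DESeq2 called 0, 1 and 1 of them. In the methionine and folate cycle around Mtr, 0 of 27 passed in either direction for the overexpression group against 5NC, and the median log2 fold change was -0.06 against -0.01 over all genes. Mmadhc, which guides cobalamin to methionine synthase, was at 107.9, 116.8 and 114.2 CPM in 5NC and at 130.4, 144.8 and 165.1 CPM in the overexpression group, without overlap. Its log2 fold change was 0.38 (edgeR adjusted p = 0.144), and it is the gene that DESeq2 called in both comparisons with 5NC (adjusted p = 0.0211 here). Ahcy, the adenosylhomocysteinase gene, had the largest fitted change of the list and was named after its values were seen. It was at 44.6, 44.7 and 40.9 CPM in 5NC and at 8.42, 18.5 and 22.1 CPM in the overexpression group, a log2 fold change of -1.41 (edgeR adjusted p = 0.376). In the knockdown group it was at 2.21, 2.92 and 14.8 CPM against 25.2, 47.8 and 21.1 CPM in 3NC (log2 fold change -2.24, edgeR adjusted p = 0.764). The estimated reads of Ahcy held fractions in every library of the knockdown and overexpression groups, such as 35.38 in knockdown replicate 1. They were whole in 3NC replicate 2 and in 5NC replicates 1 and 2. The counts of Ahcy thus include divided reads, which makes its level uncertain to that extent. Mthfd2, a mitochondrial folate enzyme, had a log2 fold change of -0.24 (adjusted p = 0.332).

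In the other lists, again 0 genes passed in edgeR. For the overexpression group against 5NC the median of the 9 tested integrin and partner genes was -0.10, with Cdh1, the E-cadherin gene, at 2.74 CPM in 5NC and 1.32 CPM in the overexpression group (adjusted p = 0.369), and Itgax at 0.471 and 1.06 CPM. For 5NC against 3NC that list had a median of -1.90. Its values ran from -3.48 to 0.51, and Itgb7 was at 13.2 CPM in 3NC replicate 2 against 0.662 and 0.338 CPM in the other 3NC libraries. The part of that library in the median was not tested. Among 13 calpain genes the median was -0.08, with Capn3 at -0.79 (adjusted p = 0.314) and Cast, the calpain inhibitor gene, at 0.28 (adjusted p = 0.345). Among 12 Slc6 transporter genes it was 0.09, with Slc6a6, the taurine transporter gene, at 0.37 (adjusted p = 0.285) and Slc6a17 at 0.59 (adjusted p = 0.417).

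The smaller lists held few tested genes. The 4 tested transglutaminase genes had log2 fold changes of 0.01 to 0.09 for the overexpression group against 5NC, where Tgm6 was at -1.78. The 3 anthrax toxin receptor genes were at -0.02 to 0.31, with Antxr2 at 0.31 and Antxr1 at 0.12. The 9 genes listed with Zfp286, the corepressor complex of zinc finger proteins and Zfp287, had a median of 0.05, with Chd3, a chromatin remodeller gene, at 0.22 (edgeR adjusted p = 0.429). In the homeobox list, Prrx1, a paired-type factor gene of mesenchyme, was at 0.18 (edgeR adjusted p = 0.889).

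**Figure D4:**
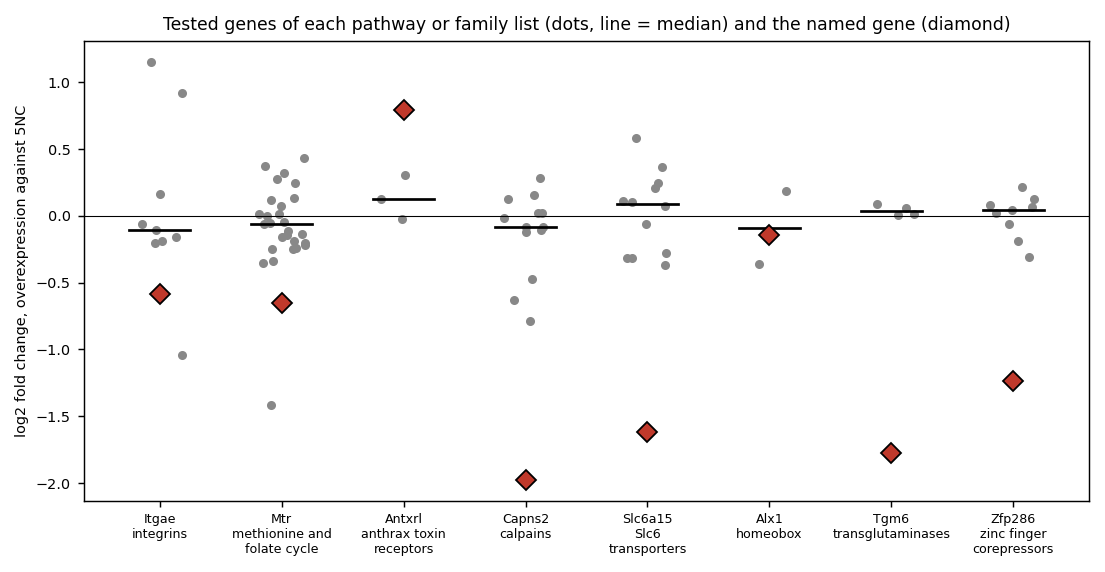
log2 fold change of the overexpression group against 5NC (vertical axis) for the tested genes of each pathway or family list (grey dots, black line for the median) and for the named gene of each list (red diamond). The list medians lay between -0.10 and 0.12, while the diamond of Capns2 is at -1.98 and that of Tgm6 at -1.78.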

How the data were processed

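RNA was profiled in 12 testis libraries, 3 per group, with groups and replicate numbers taken from the sample titles. Per the methods, the authors enriched messenger RNA with oligo(dT) and aligned reads to mouse genes with SOAPaligner; mm10 is the build in the labels. Estimated counts per gene without scaling and RPKM values, both computed by the authors, were deposited in 1 table; 17.3% of its genes hold fractional counts. How reads were shared among genes and whether counting used strand could not be read from labels or methods. The 18 other per-sample columns were not used.

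Counts were rounded and genes filtered with filterByExpr (16388 of 20788 kept). All 12 libraries entered 1 fit in edgeR 4.0.16 (R 4.3.3) with TMM scaling and 1 coefficient per group, and quasi-likelihood tests were adjusted by the Benjamini-Hochberg method over all genes tested, with a threshold of 0.05. SE is the absolute log2 fold change divided by the square root of F. The biological coefficient of variation was 22.9%, and no libraries of a group agreed within sampling noise (lowest chi-square per degree of freedom 3.50). Depth was 12719699 to 15771655 estimated reads, which leaves genes of few reads, such as Slc6a15, imprecise. Alternatives were RLE size factors, no scaling, no filter, a replicate block, only the 6 libraries compared, DESeq2 1.42.0, limma 3.58.1 on log2 CPM and on log2(RPKM + 0.1), and each library left out; the omission of 3NC replicate 2 with knockdown replicate 1 was chosen after seeing the data.

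The 8 genes and the lists were chosen with earlier results of these data known. Beside them, the rule named the genes of each list that passed in any comparison and the 2 with the smallest p for the overexpression group against 5NC, the neighbours that passed and the gene beside each of the 8 on either side, and the 2 genes of most alike profile, by the mean absolute difference of log2 CPM after centring. One result under this rule is not reported here. Haspin, Itgb7, Ptprc, Acrv1, Hbb-bs, Hbb-bt, Ahcy, P2rx5 and Ces5a were named after their values were seen. Gene positions and promoters are from RefSeq on GRCm38.p6 (all 8 genes matched), the same build as mm10.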

Additional observations from a re-analysis of the deposited data

Results flagged for a closer look

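The fitted differences of the knockdown and overexpression lineages from the control of the same vector had opposite signs in Slc6a15 and Mtr. In both genes neither group overlapped with its control. Signs were also opposite in Antxrl, Capns2, Tgm6 and Alx1. Of these, Alx1 overlapped for the overexpression group against 5NC and the others overlapped for the knockdown group against 3NC. In Zfp286 and Itgae the signs were the same, again without overlap. For the knockdown group against 3NC, 11.3% of all genes tested did not overlap, and in Mtr the gap was narrow, 43.1 against 41.8 CPM. That share was not computed for the overexpression group against 5NC. For Slc6a15, the log2 fold change of the knockdown lineage against 3NC exceeded that of the overexpression lineage against 5NC by 4.93, and for Mtr by 1.05. The knockdown comparison passed for neither gene (edgeR adjusted p = 0.701 and 0.764), and Slc6a15 was not among the genes called for overexpression against 5NC. The difference between the comparisons was not tested, since the choice of genes used the second of them. The Slc6a15 value rests on 3 reads in 3NC, and its log2 fold change for the knockdown lineage ran from 1.39 to 4.17 over the settings tried. In Slc6a15 the knockdown and overexpression groups themselves overlapped, with a log2 fold change of -0.18 (SE 0.47) for overexpression against knockdown. The controls differed by 4.75 for 5NC against 3NC, a comparison that entered the choice of genes.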

How the results depend on the processing

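In the knockdown group against 3NC, 0 of the 8 genes passed under each of the 8 other settings and in all 12 omissions of 1 library; over all genes DESeq2 called 16 where edgeR called 0, and the omissions gave 0 to 12 (12 without 3NC replicate 3, 2 without knockdown replicate 3), with 0 to 1 list genes, 0 neighbours and 0 of the 8. Of the overexpression group against 5NC, the 51 genes called became 21 with a replicate block, 106 with only the 6 libraries compared, 328 with DESeq2 and 82 with limma on RPKM, and 9 to 99 in the omissions (9 without 5NC replicate 3, 99 without 3NC replicate 2). The 6 of the 8 genes called there became 1 to 6, 1 of them without 5NC replicate 3 and 2 without 5NC replicate 2 or overexpression replicate 2. List genes were 1 with DESeq2 and 0 in each omission. The count of 1 neighbour, which is A630023A22Rik, became 0 with the block, 3 with the 6 libraries, 3 with DESeq2 and 0 to 2 in the omissions. Of 5NC against 3NC, the 21 genes became 33 with no scaling, 5 with the block, 7 with the 6 libraries, 173 with DESeq2 and 3 to 35 in the omissions. The 5 of the 8 genes became 0 with the block, 0 with the 6 libraries and 0 to 5 in the omissions (0 without any 1 of the 5NC libraries). List genes were 1 with DESeq2 and 0 in each omission; the 1 neighbour became 0 with the block, 0 with the 6 libraries and 0 to 1 in the omissions. Without both 3NC replicate 2 and knockdown replicate 1, 160 genes and 4 neighbours were called for the overexpression group against 5NC and 50 genes for 5NC against 3NC, and the effect in the knockdown group against 3NC (log2) reversed for Capns2 (-0.0404, against up to 0.327 without knockdown replicate 3) and Tgm6 (-0.0294, against up to 0.258 without 3NC replicate 1). The replicate numbers did not pair the libraries (correlations of same-numbered deviations from -0.64 to 0.39), so the block is only a setting. The cause of these changes was not tested. Of the fold changes of the 8 genes, 179 under other settings kept direction and side of the threshold and 13 kept direction only; in the omissions these were 232 and 56.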
